A study of Mus musculus with 2 samples.

Results

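The aminoacyl-tRNA synthetases of cytosol and mitochondria were followed in mouse liver with and without Pnpla8. They were chosen as all non-control probes whose gene name in the scanner files was 1 of 36 listed symbols. These comprise 20 genes for cytosolic enzymes and 16, with names ending in 2, for mitochondrial enzymes, out of 31042 gene names with a usable spot on the array. All 36 genes were found, through 44 probes, and all 36 had a probe well above background on both arrays, as did 19951 genes in all. Pnpla8 encodes a calcium-independent phospholipase that releases fatty acids from membrane phospholipids, and the study's title concerns choline supplied from liver phosphatidylcholine to the methionine cycle. One group was wild type (Pnpla8+/+) and the other Pnpla8-/-, both of strain C57BL/6N, and no treatment is named for either. Each group was 1 array carrying liver RNA pooled from 5 animals. The sample labels give the age as 6 weeks and the series text as 8 weeks. The sex of the animals and the deleted part of the gene are not given in the sources used here.

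An aminoacyl-tRNA synthetase joins an amino acid to its matching tRNA, using ATP, and so sets which amino acid each codon is read as. Cytosolic protein synthesis and the small set of proteins made inside mitochondria use separate enzymes, nearly all encoded by separate nuclear genes, while Gars and Kars each give a cytosolic and a mitochondrial form. When amino acids are scarce, uncharged tRNA activates the kinase GCN2, and the transcription factor ATF4 then raises many cytosolic synthetase genes together with genes for amino acid synthesis and uptake. Liver makes large amounts of secreted protein and is a main site of amino acid breakdown, so both sides of this balance meet there.

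With 1 pool per genotype no difference has a replicate check and no test across animals was possible, and genotype, pool and array cannot be told apart. Both arrays lay on 1 slide and were read in 1 scan. Of 43020 spots that are no controls, the wild-type array had 70.1% and the knockout array 65.6% well above background. The processed signal had its 75th percentile at 1207 for wild-type and 1018 for knockout liver. Raw signals were therefore lower on the knockout array in general, and ratios are given after dividing each array by that percentile, as log2 of knockout over wild type. The Pnpla8 probe gave 144.5 in wild-type liver, and 4.45 in knockout liver, where it did not stand well above background. Whether it lies in the deleted part is unknown, so it may not check the labels. All 10 hepatocyte markers were detected in both pools. Of 10 markers of pancreas, muscle and fat, wild-type liver had 6 and knockout liver 2 detected. Since the RNA is from whole tissue, fewer cells of a type and less RNA per cell cannot be told apart.

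No synthetase gene differed between the pools by as much as 1.5-fold, apart from Cars when the arrays were not scaled (-0.62). The lowest ratio was that of Cars, for cysteine, at -0.37, and the highest that of the mitochondrial Mars2, for methionine, at 0.40. Against 0 of 36 synthetase genes at least 1.5-fold lower and 0 at least 1.5-fold higher, 5.93% and 4.42% of all 19951 measured genes passed these folds. At 2-fold the shares over all genes were 1.85% and 1.29%, again with 0 synthetases. Past a log2 difference of 0.32 in either direction, Cars alone was lower, where 12.9% of all genes were, and Mars2 alone was higher, where 13.9% were. The median over the 36 genes was -0.04 beside 0.04 for all measured genes. Their ratios had an SD of 0.165 on the log2 scale, beside 0.392 over all genes, and 79.7% of all measured genes lay within the range the synthetases spanned.

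Ratios of this size were set beside the error that the scanner software gives for a single spot. On the log2 scale it was 0.204 for synthetase probes as unlike in wild-type signal as those of Gars (21041) and Vars (988). For bright probes it thus acts as a nearly fixed cut near 0.20, and it reached 0.30 for Nars2, a dim one. It covers the spot alone, not the animals. Empirical spread within the arrays was smaller: spots of 1 probe had a median SD of 0.047 in their ratio (298 probes) and different probes of 1 gene 0.095 (4286 genes). Each synthetase probe was spotted once. Of the 36 genes, 6 were lower by more than this software error, where 18.3% of all genes were, and 3 were higher by more than it, where 23.5% of all genes were. A difference of 2 software errors was reached by 0 of the 36, where 8.77% of all genes were lower and 7.66% higher by that much.

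**Figure D1:**
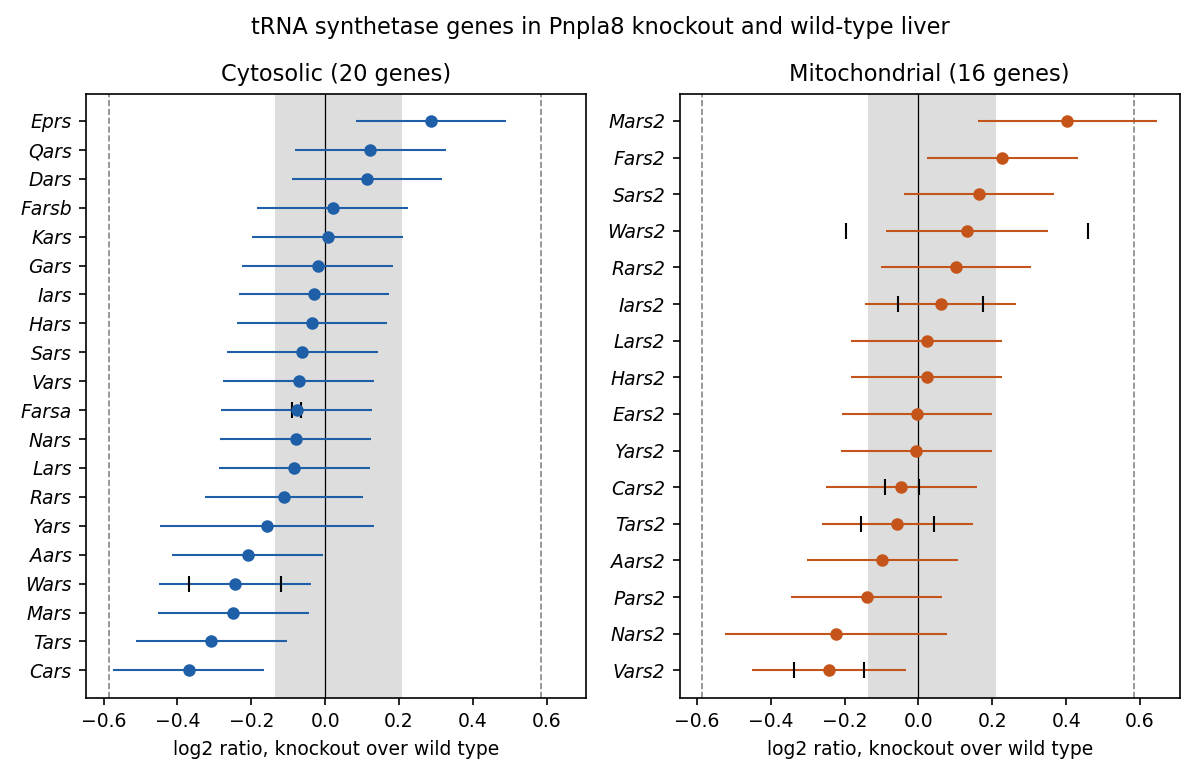
Log2 ratio of knockout over wild type for the 20 cytosolic (left) and 16 mitochondrial (right) synthetase genes, 1 point per gene with the scanner software's error as the bar and black ticks for the separate probes where a gene had 2 measured. The grey band spans the 25th to 75th percentile of all measured genes (-0.137 to 0.209), the dashed lines mark 1.5-fold, and no gene reaches them; Cars (-0.37) and Mars2 (0.40) lie at the ends.

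Among the cytosolic enzymes 15 of 20 genes were below 0, where 43.1% of all genes were, and 17 were below the median of all genes. Of the 13 alternatives run, 7 add a constant to every gene or leave the synthetase probes as they are, so only the other 6 (quantile and loess scaling, normexp background, both filters and the brightest probe) can move 1 gene against another. Over these 6 the count below 0 ran from 14, of 19 genes where only brighter probes were kept, to 17. The count below the median of all genes was 17 in 5 of them and 16 of 19 genes where only brighter probes were kept, though with the normexp background Yars moved above that median and Dars below it. A constant does move the count below 0. It was 12 when the arrays were scaled to their median and 19 without scaling or scaled to E1A spike-ins. The median ratio over the 20 genes was -0.075, which is 0.115 below that of all genes. The 5 genes lower by more than the software error were Cars, Tars, Mars, Wars and Aars. Cars, which charges cysteine, gave a processed signal of 5789 in wild-type and 3778 in knockout liver. Its scaled ratio was -0.37 with a software error of 0.20. Tars, the threonine enzyme, read 13678 in wild-type and 9320 in knockout liver, a ratio of -0.31. These are the pair of cytosolic genes that lay farthest below 0, and 13.4% of all measured genes had a lower ratio than Tars.

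Mars, which charges methionine and so also supplies the initiator tRNA, read 2180 in wild-type and 1548 in knockout liver, for a ratio of -0.25. Wars, the tryptophan enzyme, had a ratio of -0.24 as the median of its 2 probes. Aars, the alanine enzyme, read 14728 and 10744, a ratio of -0.21. For Aars the ratio and its error of 0.20 are nearly equal. All 5 genes stayed below 0, and below the median of all genes, under the 6 alternatives that can move genes unequally.

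Eprs stood at the other end of the cytosolic enzymes. It encodes a fusion enzyme that charges both glutamate and proline, and read 1436 in wild-type and 1478 in knockout liver. Its scaled ratio was 0.29, the one cytosolic value above 0 by more than the software error of 0.20. Qars, for glutamine, had 0.12 and Dars, for aspartate, 0.11. Eprs and Qars remained above the median of all genes under those 6 alternatives, while Dars was at -0.004 against it with the normexp background.

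The other cytosolic genes lay between -0.16 and 0.02, within their software error of 0. Yars, for tyrosine, was dim, at 44.9 in wild-type and 34.0 in knockout liver, and its ratio of -0.16 had an error of 0.29. Rars, for arginine, had a ratio of -0.11. Lars, for leucine, had -0.08, as had Nars, for asparagine, and Farsa, the alpha subunit for phenylalanine. Farsb, the beta subunit of that enzyme, had 0.02. Vars, for valine, had -0.07, Sars, for serine, -0.06, Hars, for histidine, -0.04 and Iars, for isoleucine, -0.03. The dual-purpose genes also lay near 0. Gars, for glycine, read 21041 and 17509, a ratio of -0.02, which was -0.129 with quantile and -0.118 with loess scaling. Kars, for lysine, read 11959 and 10140, a ratio of 0.007.

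Several cytosolic synthetases assemble with scaffold proteins into the multi-synthetase complex, and the rest act free of it. The 8 complex members had a median of -0.01, with 4 below 0, and ranged from -0.25 for Mars to 0.29 for Eprs. The 12 free enzymes had a median of -0.08, with 11 below 0, where 43.1% of all genes were, and Farsb was the exception. When the arrays were scaled to their median, Gars (0.041) and Hars (0.024) were above 0 as well. The 13 enzymes commonly described as ATF4 targets had a median of -0.08 and 12 below 0, all but Eprs. With that scaling to the median, Gars and Iars (0.031) were above 0 as well. The 7 cytosolic enzymes not so described had a median of 0.007 and 3 below 0, between -0.11 and 0.12. By catalytic fold, with Eprs in both, the 10 class I genes had a median of -0.10 and the 11 class II genes -0.04. The medians differ by no more than 0.10 within each split, and no test was made of them.

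The mitochondrial enzymes had 8 genes below 0 and 8 above, where 43.1% of all genes were below, and a median of 0.009. Of the 16, 10 were below the median of all genes. The count below 0 depends on the scaling constant. It was 4 when the arrays were scaled to their median, 15 without scaling and 13 scaled to E1A spike-ins. Mars2, which charges methionine for the initiation of mitochondrial translation, read 54.6 in wild-type and 60.9 in knockout liver, a ratio of 0.40 with an error of 0.24. It was the one synthetase with a higher raw signal in the knockout pool besides Eprs and a probe of Wars2. Probes of like signal had a median of 0.01 and an SD of 0.46, so a dim probe such as this varied widely on these arrays. Fars2, the phenylalanine enzyme, was bright, at 12057 and 11908, with a ratio of 0.23. Sars2, for serine, had 0.16, Rars2, for arginine, 0.10 and Iars2, for isoleucine, 0.06, each inside its error.

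At the low end of the mitochondrial genes, Vars2, for valine, had a ratio of -0.24 with an error of 0.21, and its 2 probes gave -0.34 and -0.15. Nars2, for asparagine, read 52.1 and 37.7, a ratio of -0.22 that lay inside its error of 0.30. Pars2, for proline, had -0.14 from the probe that was measured, at 887 and 679; its other probe was not well above background on either array. Aars2, for alanine, had -0.10. The remaining genes were within 0.06 of 0: Tars2 had -0.06, Cars2 -0.05, Yars2 -0.006 and Ears2, which charges glutamate, -0.004, while Hars2 and Lars2 both had 0.02.

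**Figure D2:**
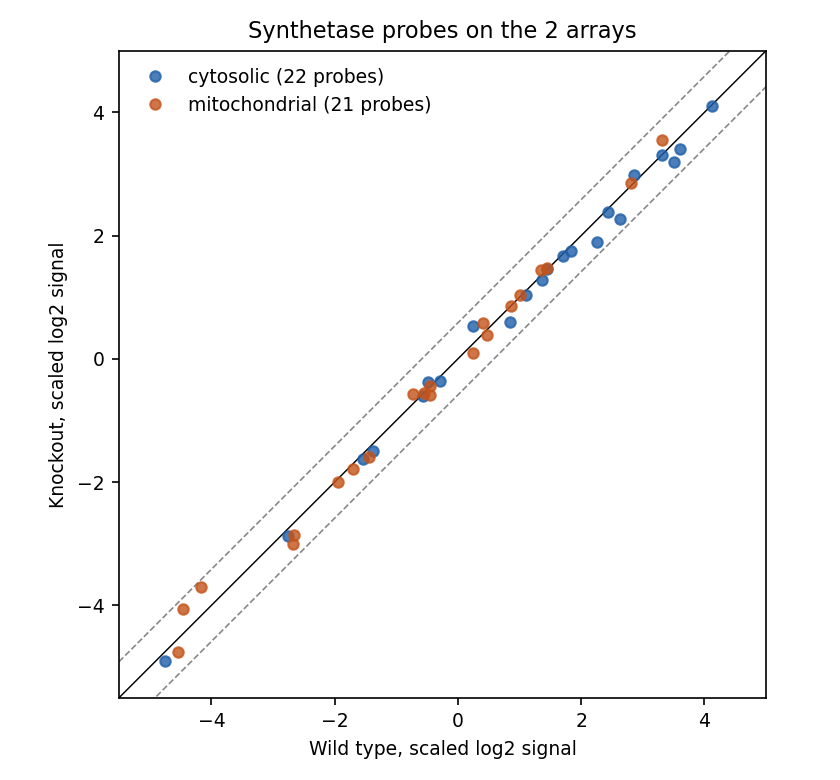
Scaled log2 signal of each synthetase probe in the wild-type pool (x axis) against the knockout pool (y axis), 22 cytosolic and 21 mitochondrial probes measured on both arrays; 0 is the array's 75th percentile. The solid line is equality and the dashed lines mark 1.5-fold, and every probe lies between the dashed lines.

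For 7 genes 2 probes were measured, and in 4 of them, Cars2, Iars2, Tars2 and Wars2, the probes fell on opposite sides of 0. The probes of Farsa differed by 0.024, those of Cars2 by 0.093, those of Vars2, Tars2 and Iars2 by 0.188, 0.198 and 0.232, and those of Wars by 0.251. The widest gap was in Wars2, the mitochondrial tryptophan enzyme. Its probe A_55_P2182527 read 67.4 in wild-type and 78.1 in knockout liver, a ratio of 0.46, while A_52_P641477, placed 13860 bases farther along the gene's strand, read 191 and 141, a ratio of -0.20. The Wars2 median of 0.13 is thus the midpoint of probes that disagree.

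Wars showed the same direction with both probes but not the same size. Probe A_55_P1972275, at chr12:110098245-110098304 in build mm9, read 7494 in wild-type and 4893 in knockout liver, a ratio of -0.37. Probe A_55_P2082902, at chr12:110104366-110104425, read 465 and 361, a ratio of -0.12. Below is 1 probe of each gene in the 2 pairings where a mitochondrial gene lay farthest above its cytosolic counterpart. Each has 60 bases, 5′ to 3′, and was taken among probes that keep an open reading frame. For Wars2, whose probes both keep one, the probe with the higher ratio is given. The differences of Wars and Wars2 rest on both probes of each gene.
Mars A_51_P479902, chr10:126733940-126733999, minus strand: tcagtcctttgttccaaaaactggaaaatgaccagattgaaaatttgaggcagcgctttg
Mars2 A_51_P396385, chr1:55295642-55295701, plus strand: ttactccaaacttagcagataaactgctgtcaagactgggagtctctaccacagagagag
Wars A_55_P2082902, chr12:110104366-110104425, minus strand: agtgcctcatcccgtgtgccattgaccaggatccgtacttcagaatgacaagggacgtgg
Wars2 A_55_P2182527, chr3:99009150-99009209, plus strand: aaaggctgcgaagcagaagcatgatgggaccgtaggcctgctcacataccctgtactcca
Coordinates are those of the array file, in mm9; exon and UTR positions were not assigned here.

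Set by amino acid, the mitochondrial gene had the higher ratio in 13 of 15 pairings with its cytosolic counterpart, Fars2 being paired with both Farsa and Farsb. These pairings leave out Eprs, which charges both glutamate and proline. Its ratio of 0.29 was above those of both mitochondrial counterparts, Ears2 (-0.004) and Pars2 (-0.14). Pars2 was farther below Eprs than Wars2 was above Wars, and so past the combined error in the other direction. Among the 15 pairings, the difference exceeded the combined software error in 4, all with the mitochondrial gene higher. It was 0.65 between Mars2 and Mars, with a combined error of 0.32, the one pairing past 2 errors; with the normexp background it was 0.58, short of 2 errors. It was 0.38 between Wars2 and Wars, 0.33 between Cars2 and Cars and 0.30 between Fars2 and Farsa, each with an error of 0.29 to 0.30. The Wars2 difference was 0.17 with the brightest probe of each gene and 0.05 with brighter probes only, and the Fars2 difference was 0.20 with quantile scaling, 0.25 with loess and 0.26 with the normexp background, all inside the error. Over the 6 alternatives 2 to 5 pairings passed it. In the valine and asparagine pairings the mitochondrial gene was the lower, by -0.17 for Vars2 against Vars and -0.14 for Nars2 against Nars. With quantile scaling the histidine pairing turned as well, to -0.03 for Hars2 against Hars, which left 12 of 15. Pairings share arrays and so are not independent, and the direction was not tested.

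**Figure D3:**
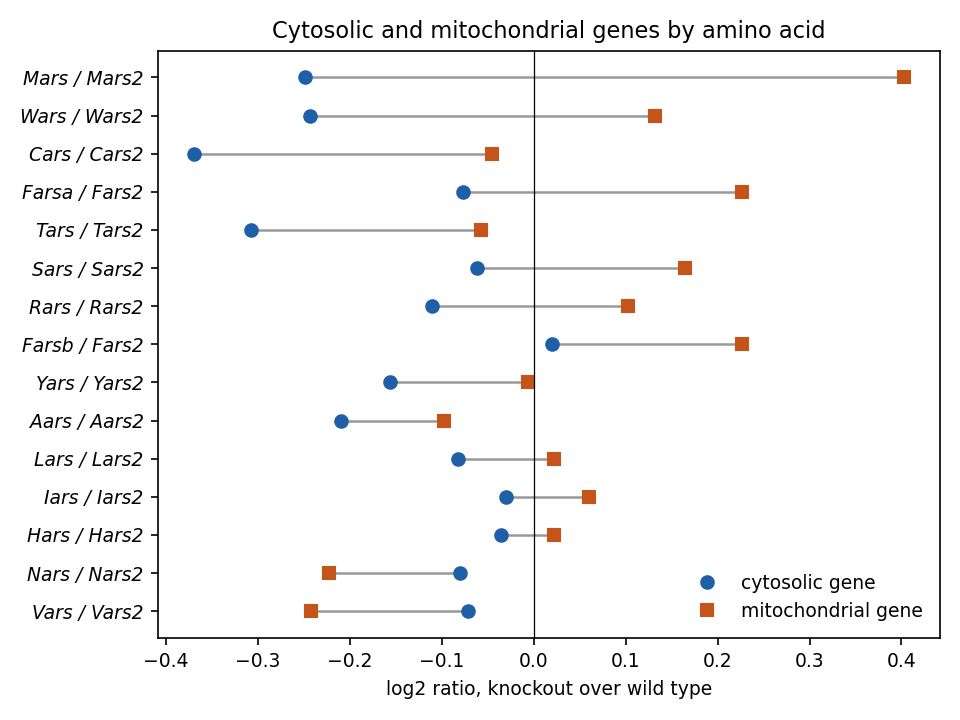
Log2 ratio of knockout over wild type for the cytosolic gene (circle) and the mitochondrial gene (square) of each of 15 pairings, sorted by their difference, with a grey line joining them. Eprs, with Ears2 and Pars2, is not drawn. The square lies to the right in 13 of the 15 pairings, and the longest line is that of Mars (-0.25) and Mars2 (0.40).

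Promoters of synthetases known to answer amino acid shortage can hold the C/EBP-ATF response element, the motif bound by ATF4 with a C/EBP partner. RefSeq promoter windows (GRCm38.p6, 250 bases before to 50 after each start) were found for 26 of the 36 genes, and both strands were searched for TGATGNAA. Windows were looked up by the listed symbols alone, not by newer gene names, so a gene without one may have a window under another name. The motif was present for 5 of the 12 cytosolic genes with a window, Aars, Gars, Iars, Tars and Yars, for 0 of 14 mitochondrial genes, and for 4.51% of all 27025 genes. A match describes the letters and is not evidence of a bound site. A window of 30 bases around 1 match per gene is given 5′ to 3′ on the gene's strand, motif in capitals, because this motif is what these synthetases have in common with Asns, asparagine synthetase, the last in the list.
Aars, chr8:111033840-111033869, motif from 9 bases after the start: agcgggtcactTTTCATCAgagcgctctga
Gars, chr6:55037960-55037989, motif from 30 bases before: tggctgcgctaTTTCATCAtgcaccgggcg
Iars, chr13:49682126-49682155, motif from 7 bases after: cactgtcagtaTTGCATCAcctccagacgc
Tars, chr15:11399655-11399684, motif from 15 bases before: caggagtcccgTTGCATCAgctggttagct
Yars, chr4:129189895-129189924, motif from 3 bases after: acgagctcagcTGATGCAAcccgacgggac
Asns, chr6:7693214-7693243, motif from 23 bases before: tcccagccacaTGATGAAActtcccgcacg
Aars, Gars, Iars and Yars lie on the plus strand and Tars and Asns on the minus strand. Aars has a further match, TGATGCAA, from 112 bases before the start, which is not shown.

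The ratios of the 5 synthetases with the motif ran from -0.31 for Tars through -0.21 for Aars, -0.16 for Yars and -0.03 for Iars to -0.02 for Gars, with a median of -0.16. The 7 cytosolic genes with a window and no match, Dars, Eprs, Farsa, Farsb, Kars, Qars and Sars, had a median of 0.02 and 2 below 0, where 43.1% of all genes were. The median of -0.16 is the value of Yars, a dim probe with an error of 0.29. With the normexp background Yars was at 0.13, and the 2 medians were -0.066 (the value of Iars) and 0.022 (that of Farsb). When the arrays were scaled to their median, Iars (0.031) and Gars (0.041) were above 0. Cars, Hars, Lars, Mars, Nars, Rars, Vars and Wars had no window under these symbols and are in neither set. All of them were below 0, where 43.1% of all genes were, though Hars was at 0.024 when the arrays were scaled to their median. Among them were Cars (-0.37), Mars (-0.25) and Wars (-0.24), so much of the low end was not searched. The split by motif was made after the ratios were known and carries no test. The upstream stretch of Tars, the lowest gene with a match, covers chr15:11399659-11399908 on the minus strand and carries its motif near the end.
Tars upstream: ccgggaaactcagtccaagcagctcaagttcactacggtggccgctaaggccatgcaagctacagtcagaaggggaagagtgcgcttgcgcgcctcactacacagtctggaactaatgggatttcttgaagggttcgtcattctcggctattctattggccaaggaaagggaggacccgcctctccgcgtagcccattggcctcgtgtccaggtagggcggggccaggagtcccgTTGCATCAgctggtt

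Asns itself, which makes asparagine from aspartate and glutamine, read 353 in wild-type and 91.2 in knockout liver, a ratio of -1.71 with a software error of 0.21. Nars, the enzyme that charges asparagine to tRNA, had -0.08. Of the serine synthesis enzymes, Psat1 read 336 and 72.5, a ratio of -1.97, while Psph had -0.51 and Phgdh -0.49 as the median of 3 probes; Sars, which charges serine, had -0.06 and Sars2 0.16. Cth, which releases cysteine from cystathionine, had a ratio of 1.18 from 15425 and 29519, and Cars, which charges cysteine, had -0.37. Asns, Psat1 and Cth thus differed by over 2-fold between the pools, while the synthetases for asparagine, serine and cysteine stayed within 1.5-fold.

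The wider list of amino acid response genes was spread far more than the synthetases. Of 30 genes 26 were measured, with a median of 0.05 and an SD of 1.13. Among them 4 were at least 2-fold lower, Fgf21 (-3.58), Psat1, Asns and the stress protein gene Nupr1 (-1.45), and 3 at least 2-fold higher, Ddit4 (2.13), the lipoprotein receptor gene Vldlr (1.41) and Cth. Of all genes 1.85% were at least 2-fold lower and 1.29% at least 2-fold higher. Atf4 itself read 19525 and 15928 as the median of its 2 probes, with a ratio of -0.01. Mthfd2, Aldh18a1 and Stc2 passed the background limit in wild-type liver alone, and Slc7a11 on neither array. Fewer spots passed that limit on the knockout array in general, 65.6% beside 70.1% on the wild-type array. Without the filter on dim probes the list median was 0.012 over all 30 genes. Relative to all genes it was -0.085 without the filter and 0.014 with it. Among the 7 genes of eIF2, its kinases and their sensors, which act upstream of ATF4, Eif2s1, the alpha subunit of eIF2, had -0.34, Eif2ak1 0.28, Eif2ak3 -0.24 and Impact -0.17, with a list median of -0.10. Eif2ak4, which encodes GCN2, had 0.02.

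Genes that work beside the synthetases were also within 1.5-fold, all 18 of the partner list, all 7 measured cytosolic elongation factors and all 10 mitochondrial translation factors, where 89.6% of all measured genes were. The scaffold genes of the multi-synthetase complex had 0.03 for Aimp1, -0.16 for Aimp2 and -0.07 for Eef1e1. The partner list had a median of 0.007, with Sepsecs, which makes selenocysteine on its tRNA, at 0.44, the peptidyl-tRNA hydrolase gene Ptrh2 at -0.35, the threonine enzyme relative Tarsl2 at 0.30 and the tRNA export factor gene Xpot at -0.26. The elongation factors had a median of 0.001 (-0.133 with quantile scaling), led by Eif5a at 0.35, with Eef1g at -0.205, Eef2k at -0.11 and Eef1a1 at 0.09. The mitochondrial factors had a median of 0.09, with Guf1 at 0.28, Gfm1 at 0.19, Tufm, which delivers charged tRNA to the ribosome, at 0.16 and Mtif2 at 0.16.

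**Figure D4:**
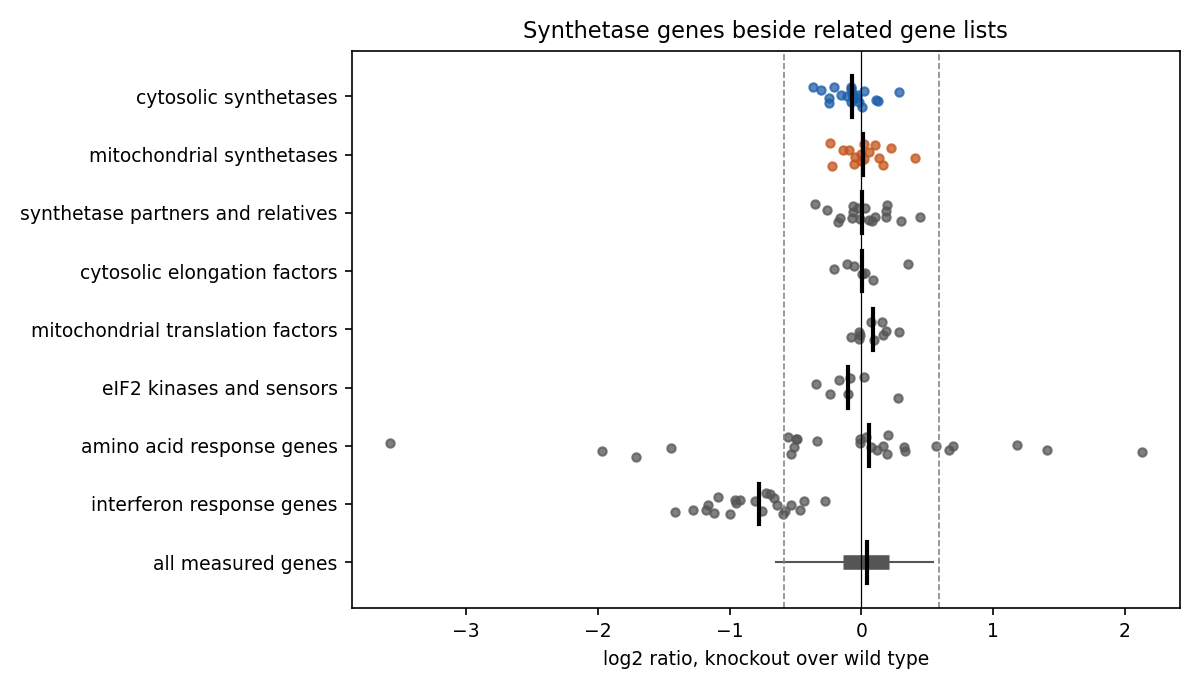
Log2 ratio of knockout over wild type for each measured gene (points, spread vertically for legibility) of the cytosolic and mitochondrial synthetases and of 6 related lists, with the list median as a black bar. The bottom row gives all measured genes as the 5th to 95th percentile (thin line, -0.645 to 0.542) and the 25th to 75th (thick line); the dashed lines mark 1.5-fold, and the synthetases lie inside them while amino acid response genes run from -3.58 to 2.13.

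Wars is the synthetase best known for induction by interferon-gamma, and interferon response genes were lower in the knockout pool as a list. All 22 measured members of 23 were below 0, where 43.1% of all genes were, with a median of -0.78. Of the 22, 17 were at least 1.5-fold lower, where 5.93% of all genes were. The lowest were Cxcl9 (-1.41), Cxcl10 (-1.28), Igtp (-1.18) and Mx1 (-1.17), and Irf1, a transcription factor of this response, had -0.64. Their summed scaled signal was 72.3 times the array's 75th percentile in wild-type and 41.4 in knockout liver. Ido1 was not well above background in either pool. The Wars ratio of -0.24 was nearer to 0 than that of every measured gene of the list, of which the closest was Irgm1 at -0.28, though the brighter Wars probe, at -0.37, lay below Irgm1.

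Most markers of immune cells were lower too. All 13 Kupffer cell and macrophage markers were at least 1.5-fold lower, where 5.93% of all genes were. They had a median of -0.93 and a summed scaled signal of 109 in wild-type and 51.4 in knockout liver, and all were detected in both pools. Of 12 lymphocyte and NK cell markers 10 were measured and 8 of them were at least 1.5-fold lower, all but Cd3e (-0.06) and Cd4 (0.04). The list had a median of -0.77 (-0.37 with the normexp background) and a summed signal of 9.67 and 8.36, to which Cd4, the brightest member, contributed most; Ncr1 was detected in neither pool and Cd8a in wild-type liver alone. Stellate cell and fibroblast markers had a median of -0.41, with 7 of 8 below 0, Acta2 lowest at -1.01 and Dcn highest at 0.03, and a summed signal of 55.5 and 52.7. Endothelial markers had a median of -0.21, with 4 of 7 below 0, from -0.66 for Lyve1 to 0.03 for Stab2, and a sum of 44.6 and 40.4. Cholangiocyte markers had a median of 0.035, with 3 of 6 below 0. Over all genes 43.1% were below 0. Hepatocyte markers had a median of 0.18 (-0.023 with quantile scaling) and a sum of 1851 and 2132. The part of cell composition in the synthetase ratios was not tested.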

How the data were processed

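Liver RNA of 2 pools, wild type and Pnpla8 knockout by the genotype label, was measured on 1 single-colour array each. Per the labels' protocols, 200 ng of RNA per pool was the input to amplification and Cy3 labelling. Per the submitters' processing notes, the authors read spot intensity with Agilent Feature Extraction, version 11.5.1.1. The deposited scanner files hold linear intensity, with probe coordinates in mm9 per the file headers. The deposited value table is each array's processed intensity divided by a constant, 1207 and 1019. No per-sample column was left out (0).

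Processed signals were put on a log2 scale and centred on each array's 75th percentile, taken over spots that are no controls. Spots with an outlier mark (119 and 170) were dropped, which touched 0 synthetase probes, and each gene took the median ratio of those of its probes that were well above background on both arrays. Such dim-end filters and scaling can shift ratios, and the alternatives run are given in the closing section. The software error of a gene is the processed signal errors of both arrays combined on the log2 scale, averaged over its probes. Members were matched by the file's gene name. Other genes were named through RefSeq (GRCm38.p6): of 39429 probes, 28330 by accession and 2378 by name, with 8721 keeping the file's name; 5 of them had outlier-marked spots alone and were not used.

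All 36 members are reported. Those described with signals were, by rule, the up to 6 highest and 6 lowest per compartment, Gars, Kars and Wars, and genes with discordant or undetected probes; related lists name up to 4 genes of largest ratio, and others named were picked with values known. Some related items are not reported here. Members and lists were chosen with earlier results of these data known. The steps were tested on simulated data. Precision is limited by the number of arrays. Tools were Python 3.11.15, numpy 2.4.6, pandas 2.3.3, statsmodels 0.14.6 and limma 3.58.1 in R 4.3.3.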

Additional observations from a re-analysis of the deposited data

How the results depend on the processing

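Synthetase ratios were recomputed with 13 alternatives of scaling, background, filter, probe summary and naming, besides a mean in place of a median and a lower fold. Without scaling, where the median of all genes shifted by -0.245, the medians were -0.286 over all synthetases, -0.32 for the cytosolic and -0.236 for the mitochondrial genes, and 1 gene (Cars, at -0.62) was at least 1.5-fold lower. Scaled to 8 E1A spike-ins, the medians were -0.199, -0.232 and -0.149, with a shift of all genes of -0.158. Scaled to each array's median they were 0.02, -0.014 and 0.07, with a shift of 0.061, so the sign of these medians depends on the scaling constant. Each of these settings moves every gene by 1 constant, so the medians relative to all genes stay at -0.081, -0.115 and -0.031 by construction. Past a log2 ratio of 0.32 in place of 1.5-fold, 1 gene was lower and 1 higher. The counts at 1.5-fold and 2-fold were otherwise 0. Over the 6 alternatives that can move genes unequally, the medians relative to all genes ran from -0.137 to -0.077 over all synthetases, from -0.171 to -0.111 for the cytosolic and from -0.087 to -0.03 for the mitochondrial genes. Cars was lowest except without the filter on dim probes, where Pars2 was (-0.46), and Mars2 highest except above the median signal, where it was not measured and Eprs was (0.29). Over the same 6, Wars2 was below the median of all genes under 2 and Kars under 6. The number of pairings with the mitochondrial gene higher was 12 of 15 with quantile scaling, 11 of 12 with brighter probes only and 13 of 15 under the other 4. No paired analysis was possible because each group is 1 array. No replicate could be left out for the same reason.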
